A study of Mus musculus with 16 samples.

Results

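Caveolae are small flask-shaped pits of the plasma membrane. They are built from caveolins, membrane proteins that assemble with cholesterol in the lipid bilayer, and from cavins, cytoplasmic coat proteins that join the caveolins at the cell surface. Caveolae buffer membrane tension and take part in lipid handling, and fibroblasts, endothelial cells, adipocytes and muscle cells are rich in them. Transcripts of 5 of these genes were followed here in fibroblasts treated with a proteasome inhibitor, 5 of the 23356 genes counted. They were taken by symbol: the caveolins Cav1 and Cav2, and the cavins Ptrf (cavin-1), Sdpr (cavin-2) and Prkcdbp (cavin-3). The list was drawn up with results of these same libraries already known, in particular the course from 45 to 405 min in the libraries rich in ribosomal protein transcripts, so that course is given as a description and was not tested.

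The cells were NIH3T3, a mouse fibroblast line, stably expressing DD-sfGFP, superfolder GFP fused to a destabilizing domain, and all 4 groups shared this background. The domain is an FKBP12 mutant (L106P) that the proteasome degrades unless the ligand S1 is bound. The methods of the study describe a population sorted for high expression and kept with S1. The control group was untreated (0 min), and the other groups received bortezomib, an inhibitor of the proteasome, for 45, 135 or 405 min. Each group had 4 replicate libraries. No source states that these came from separate cultures, so p-values measure the spread between libraries, which may be technical. Vehicle controls at 45, 135 and 405 min were not analysed here, so drug and elapsed time cannot be told apart.

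The libraries were of 2 kinds. In 7 of them, 4.25% to 9.42% of the fragments lay in ribosomal protein genes, and these are called high-share libraries below. They were replicates 1 and 2 at 45 min, replicates 1 and 2 at 135 min, and replicates 1, 3 and 4 at 405 min. In the other 9, called low-share libraries and holding all 4 controls, that share was 0.398% to 1.21%, while olfactory and vomeronasal receptor genes, which fibroblasts have little use for, took 4.14% to 5.12% of the fragments, against 0.00531% to 2.61% in the high-share libraries. Depth was 1385229 to 19930375 fragments in the high-share libraries and 570323 to 1469951 in the others. The boundary was drawn at 4%. The nearest library above it was 405 min replicate 3 (4.25%). The nearest below it, by a much wider gap, was control replicate 2 (1.21%). Because no control was a high-share library, library kind and treatment cannot be told apart there, and high-share libraries could be compared with each other only. The summed level of 12 fibroblast markers was 3597 to 21791 CPM (counts in each 1000000 fragments) in the high-share libraries and 429 to 1763 CPM in the others. A list of 7 endothelial markers summed to 1.80 to 153 CPM in the former and 223 to 505 CPM in the latter. Heat-shock genes, whose transcription rises when the proteasome is blocked, checked the treatment. Of 4 measured well enough in the high-share libraries, Hspa1b, Hsph1 and Dnajb1 were higher in all 405 min than in all 45 min libraries. Of all genes so measured, 8.95% were. Hspa1b was at a mean of 117, 1598 and 6277 CPM at 45, 135 and 405 min. Among the 405 min libraries, replicate 3 was highest for Hspa1b (10097 CPM) but lowest for Hsph1 (541 CPM, against 5159 and 4509 CPM). It was also lowest for Dnajb1 and for Hmox1, whose times overlapped. The sequence of Hspa1b is nearly that of the adjacent Hspa1a, and fragments may have been split between both.

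Cav1 and Cav2 are neighbours. In the NCBIM37 assembly (mm9) Cav2 lies on chromosome 6 at 17231185 to 17239115 and Cav1 at 17256335 to 17291452, both on the plus strand, with 17220 bases between the end of Cav2 and the start of Cav1. An antisense gene, Gm15581, overlaps both, and as the strandedness of the counting is not stated, its fragments could not be told from theirs. Ptrf lies on chromosome 11 (100818047 to 100832201, minus strand), Sdpr on chromosome 1 (51345970 to 51359803, plus strand) and Prkcdbp on chromosome 7 (112629121 to 112630711, minus strand). The 250 bases upstream of the 2 caveolin genes, which are neighbours, are shown. Sdpr, whose upstream bases are not shown, correlated with each caveolin about as closely as they did with each other (values below). The sequences are from the RefSeq promoter table and matched NCBIM37 exactly, at chr6:17256085-17256334 for Cav1 and chr6:17230935-17231184 for Cav2, both on the plus strand. Capitals mark motif matches: the GC box GGGCGG in both (read on the other strand in Cav1), and in Cav2 also the CCAAT box CCAAT and the AP-1 motif TGANTCA.
Cav1: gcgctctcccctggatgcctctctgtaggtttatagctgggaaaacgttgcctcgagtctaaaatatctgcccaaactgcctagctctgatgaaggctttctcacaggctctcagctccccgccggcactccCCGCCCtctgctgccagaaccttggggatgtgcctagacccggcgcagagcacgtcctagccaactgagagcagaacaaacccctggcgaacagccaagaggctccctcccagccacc
Cav2: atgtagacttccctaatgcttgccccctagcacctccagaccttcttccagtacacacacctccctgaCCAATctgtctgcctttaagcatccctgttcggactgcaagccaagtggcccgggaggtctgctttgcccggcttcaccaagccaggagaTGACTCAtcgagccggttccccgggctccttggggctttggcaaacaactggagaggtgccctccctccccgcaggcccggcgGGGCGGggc
The GC box began 118 bases before the start in Cav1 and 9 bases before it in Cav2, and 32.7% of 32851 promoters of the same length held it on either strand. The Cav2 promoter had its AP-1 motif 92 bases and its CCAAT box 182 bases before the start, found in 6.75% and 33.8% of promoters. Neither promoter held the heat-shock element pairs GAANNTTC (6.69% of promoters) or TTCNNGAA (7.17%) or the E-box CACGTG (6.02%), all searched on both strands. GAANNTTC and TTCNNGAA overlap in longer heat-shock elements. These are matches of letters, not binding sites.

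In the high-share libraries the transcripts of both caveolins fell steeply between 45 and 405 min of bortezomib, and Sdpr fell less. Ptrf and Prkcdbp had no ordered course. Mean levels at 45 min were 8.28 times those at 405 min for Cav1, 6.24 times for Cav2, 2.62 times for Sdpr, 1.93 times for Prkcdbp and 1.42 times for Ptrf. These values describe the course that chose the genes and carry no test. A lower level in a bulk library can reflect fewer cells with the transcript or less of it per cell, and these cannot be told apart.

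**Figure D1:**
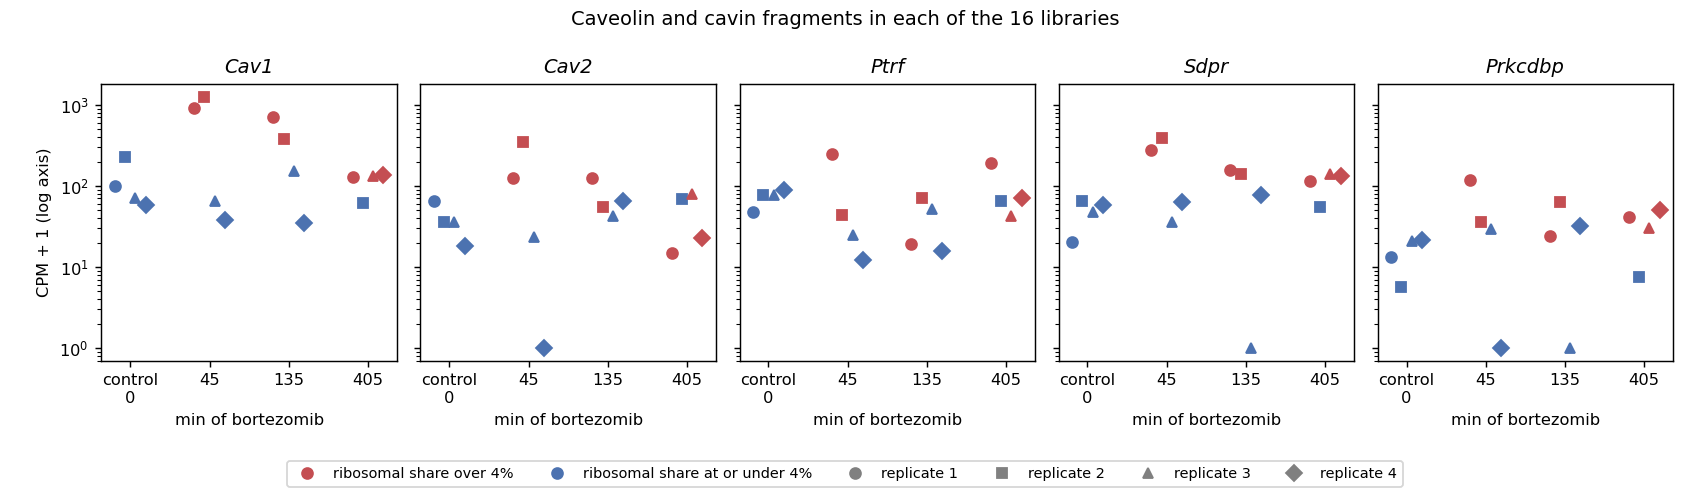
Level of each gene in the 16 libraries, as CPM + 1 on a log axis, against min of bortezomib (control at 0 min). Each point is 1 library, its shape gives the replicate number and its colour the ribosomal protein share (red over 4%, blue at or under 4%). All 4 controls are blue, and a gene with no fragment sits at 1.

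Cav1, the caveolin that forms the scaffold of caveolae outside striated muscle, had 16781 and 7723 fragments in the high-share libraries at 45 min, or 913 and 1264 CPM. At 135 min it was at 715 and 375 CPM (2256 and 1738 fragments). At 405 min it was at 129, 131 and 135 CPM (1968, 181 and 2681 fragments). The 3 times did not overlap, and the 3 libraries at 405 min lay close together although their depth differed. On the log2(CPM + 1) scale the mean fell by 3.02 from 45 to 405 min, of which 1.05 before and 1.97 after 135 min, with an SD within times of 0.37. Of 5858 genes with a mean of at least 20 CPM over the high-share libraries and at least 10 fragments in each, 8, Cav1 among them, fell by that much or more. All 5 genes met these 2 criteria.

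Cav2, which needs Cav1 to reach the cell surface and forms hetero-oligomers with it, was at 124 and 352 CPM at 45 min (2278 and 2149 fragments). At 135 min it was at 123 and 53.7 CPM, and at 405 min at 13.7, 78.7 and 22.0 CPM (209, 109 and 439 fragments). Every library at 405 min was below both at 45 min, but the 405 min value of 78.7 CPM lay between the values at 135 min, so the times were not fully ordered. The mean fell by 2.81 on the log2 scale with an SD within times of 1.12, against 0.37 for Cav1, and 13 of the 5858 genes fell as much. The library at 78.7 CPM was replicate 3, the shallowest of the high-share libraries, with the lowest ribosomal and the highest receptor share of them (2.61%). Without it the mean at 45 min was 13.3 times that at 405 min, the mean log2 value fell by 3.51, and 4 genes fell as much. Without 45 min replicate 2, which held the highest level, it fell by 2.06.

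Sdpr, a phosphatidylserine-binding cavin that shapes caveolar membrane, was at 276 and 394 CPM at 45 min, 156 and 140.4 CPM at 135 min, and 114, 140.0 and 129.8 CPM at 405 min. The 3 times did not overlap in CPM, but the lowest library at 135 min lay only just above the highest at 405 min. Most of its log2 fall of 1.37 lay before 135 min (1.15), whereas Cav1 fell more after that time.

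Ptrf, the cavin that caveolae need in order to form, was at 245 and 42.2 CPM at 45 min, 18.1 and 69.9 CPM at 135 min, and 193, 41.9 and 69.2 CPM at 405 min. The libraries of 1 time lay far apart, with an SD within times of 1.36 on the log2 scale against a mean difference from 45 to 405 min of -0.30. Prkcdbp, a cavin named as a binding protein of protein kinase C delta, was at 118 and 35.4 CPM, then 23.1 and 62.3 CPM, then 40.2, 29.6 and 49.7 CPM. Its mean log2 difference from 45 to 405 min was -0.72 with an SD within times of 0.82, and the times overlapped. Leaving out 45 min replicate 1 turned both differences positive, to 0.95 for Ptrf and 0.14 for Prkcdbp, and leaving out 405 min replicate 3 turned that of Ptrf to 0.18.

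**Figure D2:**
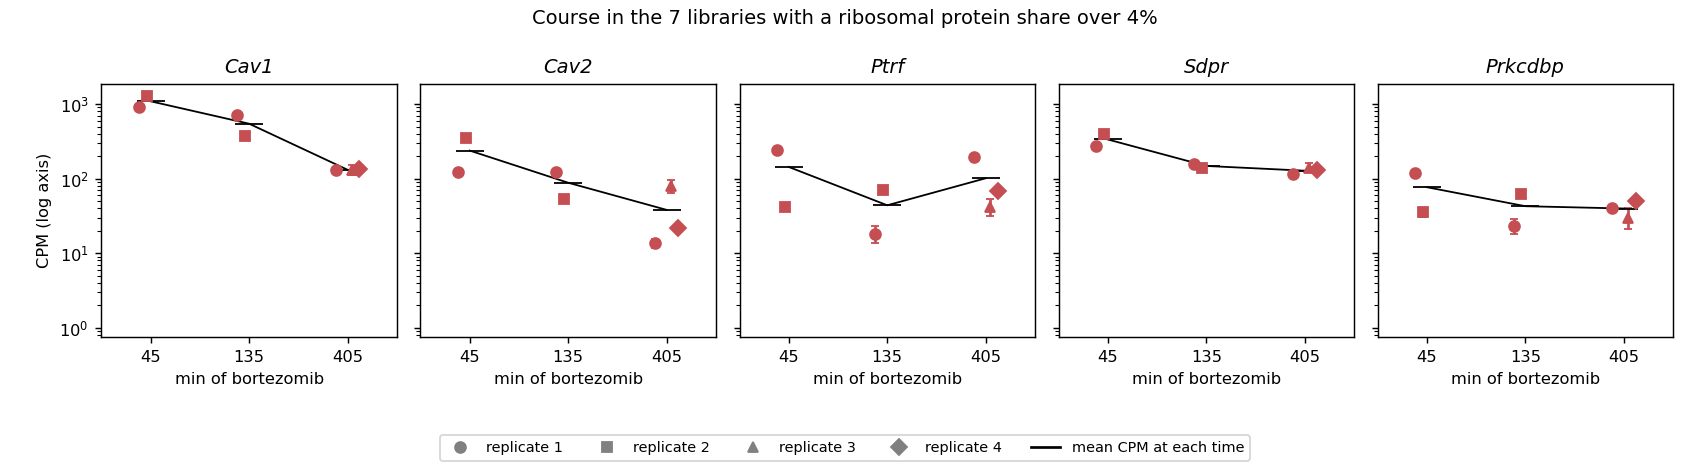
Levels of the 5 genes in the 7 high-share libraries, in CPM on a log axis, at 45, 135 and 405 min of bortezomib. Points are libraries with 95% exact Poisson intervals for counting error, and the black line joins the mean CPM of each time. Cav1, Cav2 and Sdpr run downward, whereas the libraries of 1 time lie far apart for Ptrf.

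All genes give the background to this course. Over the 5858 genes the median log2 difference from 45 to 405 min was -0.14. All 405 min libraries were below all 45 min libraries for 19.9% of genes and for 3 of the 5 genes here (Cav1, Cav2 and Sdpr). In CPM the 3 times were in falling order without overlap for 2.88% of genes, and here for Cav1 and Sdpr. A fall of at least 4-fold was seen in 1.64% of genes, and here in Cav1 and Cav2. As the genes were chosen on this course, nothing follows from these counts beyond the place of each gene in the distribution.

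The fall of Cav2 was then set against those of the other 4 genes inside each library, which removes the scaling by depth. The log2 ratio of Cav2 to Cav1 fragments, with 0.5 added to each, averaged -2.36 at 45 min, -2.67 at 135 min and -2.19 at 405 min in the high-share libraries. The change from 45 to 405 min was 0.17, and its sign rested on single libraries: it was -0.56 without 405 min replicate 3, -0.34 without 45 min replicate 1 and 0.69 without 45 min replicate 2. Against the cavins, the mean ratio changed by -1.48 for Sdpr, -2.13 for Prkcdbp and -2.55 for Ptrf, but the libraries of these times overlapped in each case. Leaving out each library of 45 and 405 min in turn kept these changes negative and moved their size. Without 45 min replicate 2 they were -0.99 against Sdpr, -0.51 against Prkcdbp and -0.54 against Ptrf. Without 45 min replicate 1 they were -1.98, -3.75 and -4.57, without 405 min replicate 3 they were -2.14, -3.05 and -3.77, and without 405 min replicate 1 they were -1.03, -1.58 and -1.41.

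As a share of the fragments of both caveolins, Cav2 made up 11.95% (95% exact binomial interval 11.5% to 12.42%) and 21.8% (21.0% to 22.6%) in the high-share libraries at 45 min. At 135 min the shares were 14.6% (13.3% to 16.05%) and 12.5% (11.1% to 14.1%). At 405 min they were 9.60% (8.40% to 10.9%) in replicate 1, 37.6% (32.0% to 43.4%) in replicate 3 and 14.1% (12.9% to 15.3%) in replicate 4. Replicates of 1 time differed by more than their intervals at 45 and at 405 min, and those intervals cover counting error only. In the 9 other libraries the share ran from 0 of 23 fragments in 45 min replicate 4, an interval up to 14.8%, to 65.1% (54.1% to 75.1%) in 135 min replicate 4, and the 4 controls spanned 13.3% to 39.2%.

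**Figure D3:**
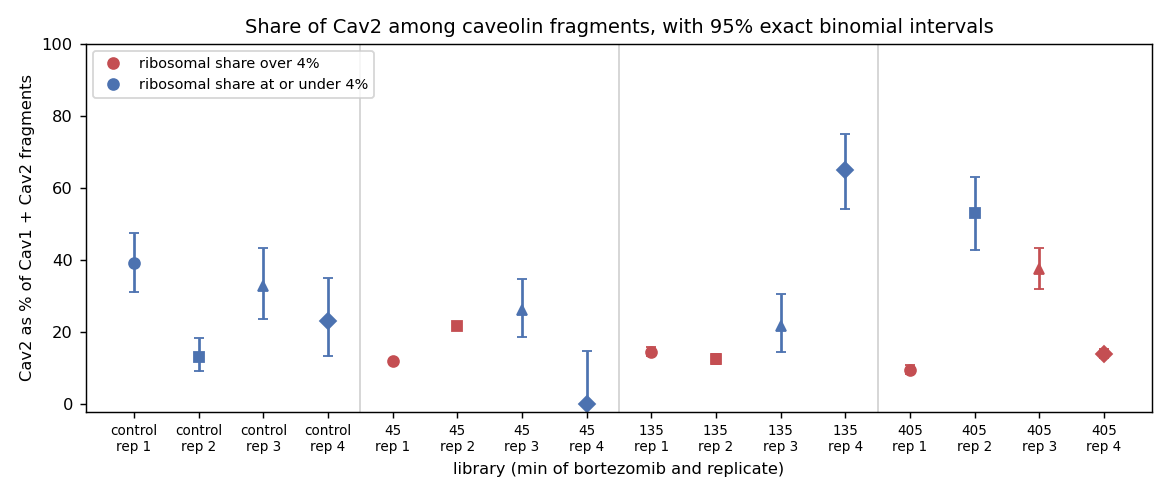
Cav2 fragments as a percentage of Cav1 plus Cav2 fragments in each of the 16 libraries, with 95% exact binomial intervals. Red marks libraries with a ribosomal protein share over 4% and blue the others. The red points lie between 9.60% and 37.6%, and the blue ones between 0% and 65.1% with wider intervals.

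The ratios were also tested against control. The controls had no part in the choice of genes. The high-share libraries at 45, 135 and 405 min did and enter these tests. At each time, p-values over all libraries are therefore not independent of that choice. The log2 ratio of Cav2 to Cav1 was -1.51 ± 0.90 in control (SD, n = 4) and -2.94 ± 1.84, -1.57 ± 1.69 and -1.60 ± 1.59 at 45, 135 and 405 min over all libraries (n = 4 each). The differences of -1.43, -0.06 and -0.09 had p = 0.2, 0.914 and 0.914 in 2-sided exact permutation tests. Measured against the mean of the other 4 genes, Cav2 differed from control by -0.82, 1.01 and -0.57 (p = 0.571, 0.314 and 0.686 in the same exact tests). Within the low-share libraries alone, the Cav2 to Cav1 ratio was -1.51 ± 0.90 in the 4 controls and -1.56 ± 2.501 in 5 treated libraries, a difference of -0.05 (exact permutation p = 1). This last test used no high-share library, but it pooled the 3 times. Its treated log2 ratios ran from -5.55, where Cav2 had no fragment, to 0.89. With that spread it cannot decide whether the ratio changed. Adjusted over these 7 tests, every p was 1. The smallest p such tests allow is 0.0286 with 4 against 4 and 0.0159 with 4 against 5.

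Each time was next compared with control over all libraries, which asks whether caveolar transcripts changed after bortezomib. The same limit holds here. For none of the 5 genes did all 4 libraries of a time lie above, or all below, the 4 controls. Over the 22359 genes with a fragment, 0.698%, 0.729% and 2.68% lay above at 45, 135 and 405 min and 4.36%, 8.85% and 7.42% below. Cav1 was at 98.3, 228, 70.7 and 57.8 CPM in control, and in the treated low-share libraries it was at 63.3 and 36.8 CPM (45 min), 151 and 34.1 CPM (135 min) and 61.1 CPM (405 min). Only the high-share libraries at 45 and 135 min exceeded the controls, and the levels at 405 min fell inside their range. Cav2 was at 63.2, 34.8, 34.8 and 17.3 CPM in control. Sdpr ranged from 19.2 to 63.8 CPM in control, Ptrf from 46.3 to 87.9 CPM and Prkcdbp from 4.64 to 20.8 CPM.

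In edgeR's quasi-likelihood test, run on the 5030 genes with at least 1 fragment in every library, Cav1 and Ptrf were the members tested. Neither passed an adjusted p of 0.05 at any time, and the share of all tested genes that passed was 0.0% at each. Cav1 had a log2 fold change against control of 2.80 at 45 min (SE 1.18, edgeR adjusted p = 0.381), 1.82 at 135 min (SE 1.14, adjusted p = 0.559) and 0.34 at 405 min (SE 1.10, adjusted p = 0.863). The unadjusted p of Cav1 at 45 min was 0.0286 in the edgeR fit, and 12.9%, 9.18% and 16% of tested genes had a p under 0.05 at the 3 times. DESeq2 gave Cav1 at 45 min a log2 fold change of 2.77 and an adjusted p of 0.0392. That value rests on the 2 high-share libraries, from which the course was read, while the 2 low-share libraries lay at 63.3 and 36.8 CPM, under the control mean of 114 CPM. DESeq2 called 6.56%, 3.44% and 8.03% of tested genes higher at the 3 times. Ptrf had log2 fold changes of 0.58, -0.80 and 0.66 (edgeR adjusted p = 0.765, 0.743 and 0.645).

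The other 3 genes had no fragment in at least 1 library and entered only the edgeR fit without a filter on counts (22359 genes). There Cav2 had log2 fold changes of 2.86, 1.43 and 0.90 at 45, 135 and 405 min (adjusted p = 0.555, 1 and 0.969). Sdpr had 3.06, 1.69 and 2.37 (adjusted p = 0.555, 1 and 0.593), and Prkcdbp 2.59, 1.69 and 2.45 (adjusted p = 0.650, 1 and 0.637). Cav1 and Ptrf, which were also in this fit, were at 3.39, 2.18 and 1.15 and at 1.10, -0.41 and 1.78. Of all genes of this fit, 0.0%, 0.0% and 0.00447% were called. Cav2 and Sdpr had unadjusted p of 0.0254 and 0.0223 at 45 min in that edgeR fit, where 8.29%, 3.63% and 9.23% of genes had a p under 0.05 at the 3 times. When only low-share libraries were fitted without a filter, Cav2 was at -1.64, 0.24 and 0.93 at the 3 times. Sdpr was at 0.0094, -0.40 and 0.29 in that fit and Prkcdbp at 0.051, -0.029 and -1.06. Cav1 and Ptrf were read from a separate low-share fit of genes with at least 1 fragment in each library used. Its values are therefore not like for like with those of the unfiltered fit. In it Cav1 lay below control at each time, at -1.15, -0.48 and -0.89. Ptrf was at -1.97 at 45 min (edgeR quasi-likelihood test, adjusted p = 0.999), and at 405 min this fit had 1 treated library, whose spread was taken from the other groups.

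Levels per kb of exon were set against those of the receptor genes. In the 9 low-share libraries the mean level of Cav1 was 25.9 CPM per kb, above that of 99.4% of 1411 olfactory and vomeronasal receptor genes. Cav2, at 11.6 CPM per kb, was above 70.4% of the receptor genes, and Ptrf, at 9.58 CPM per kb, above 57.2%, where the median receptor gene had 8.76 CPM per kb. Sdpr (15.2 CPM per kb) was above 89.1% and Prkcdbp (13.3 CPM per kb) above 82.1% of them. In the high-share libraries all 5 genes exceeded 99.9% of the receptor genes, whose median was 1.20 CPM per kb.

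Within the high-share libraries the median level was highest for Cav1, at 109 CPM per kb, followed by Sdpr at 46.0, Prkcdbp at 38.8, Cav2 at 23.6 and Ptrf at 13.2 CPM per kb. Cav1 ranged from 37.7 to 368 CPM per kb, Sdpr from 37.2 to 129, Prkcdbp from 22.4 to 114, Cav2 from 4.12 to 106 and Ptrf from 3.46 to 46.9 CPM per kb, so neighbours in this order overlapped. Before 405 min Cav1 ranked first in each of the 4 libraries. At 405 min Prkcdbp ranked first in replicates 1 and 4 and Sdpr in replicate 3.

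Levels of the genes were also correlated with each other over the 7 high-share libraries. Log2(CPM + 1) of Cav1 and Cav2 had a Pearson r of 0.85, Cav1 and Sdpr one of 0.85, and Cav2 and Sdpr one of 0.86. Of the 5858 genes, 333 had a higher r with Cav1 than Cav2 did, and 351 a higher one than Sdpr. Ptrf and Prkcdbp had an r of 0.79, which 603 genes exceeded with Ptrf, whereas r was -0.42 between Cav2 and Ptrf and -0.16 between Cav1 and Ptrf. These are descriptions over 7 libraries that share their times and differ in depth and base composition. The genes with the course most like that of Cav2, out of 5858, were Tob1 (r = 0.993), Casp12 (0.990), Fam76a (0.975), Mex3d (0.973) and Cisd1 (0.971). Each of these had, as Cav2 did, a higher level in replicate 3 than in the other 2 high-share libraries at 405 min. Casp12, for example, was at 10.7, 28.9 and 11.7 CPM in replicates 1, 3 and 4.

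The genes differ in base composition. The longest transcript of Ptrf is 57.3% and that of Prkcdbp 60.8% G or C, in the top of 5 equal GC classes of the 5541 genes of the course with a known transcript. Cav1 (42.6%) and Cav2 (37.5%) are in the bottom GC class and Sdpr (44.4%) in the one above it. Genes of the top GC class moved with the library: on the log2 scale their median deviation from the gene mean was 0.32 (replicate 1) and -0.44 (replicate 2) after 45 min. After 135 min it was -0.47 and 0.16, and after 405 min it was 0.74 in replicate 1, -0.18 in replicate 3 and -0.01 in replicate 4. Ptrf had its 2 highest levels in the libraries where that class was highest, replicate 1 at 45 min and replicate 1 at 405 min. Prkcdbp, of the same class, was also highest in the former but at 40.2 CPM in the latter, below replicate 4 of that time and replicate 2 at 135 min. The bottom class, to which the caveolins belong, was at 0.30 in replicate 2 at 45 min, where Cav2 was highest. It was at 0.32 in replicate 1 at 135 min, where Cav2 was at 123 CPM. In replicate 1 at 405 min, where Cav2 was lowest, it was at -0.49. In replicates 3 and 4 at 405 min the class was at -0.15 and -0.03, and Cav2 at 78.7 and 22.0 CPM. Taken relative to genes of its own class, the change from 45 to 405 min was -2.57 for Cav1, -2.36 for Cav2, -1.04 for Sdpr, -0.996 for Prkcdbp and -0.58 for Ptrf, so the order of the 5 genes was kept. The part of base composition in these levels was not tested.

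**Figure D4:**
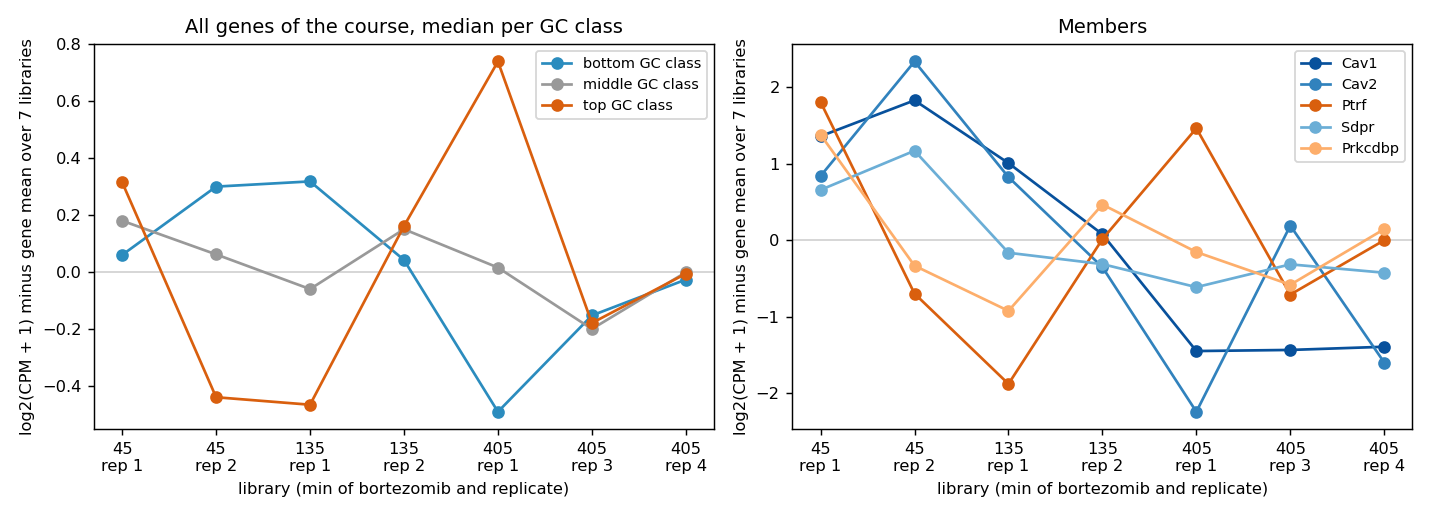
Deviation of log2(CPM + 1) from the mean over the 7 high-share libraries, by library (min of bortezomib and replicate). Left, the median over genes of the bottom, middle and top GC class; right, the 5 genes, with the 2 GC-rich ones in orange. The top GC class is highest in 405 min replicate 1, at 0.74, where Ptrf lies above and Prkcdbp below its mean.

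The rest of the caveolar machinery was read from the same libraries. Of 16 caveola-associated genes (Cav3, the cavin relative Murc, the pacsin and EHD membrane-shaping proteins, the filamin Flna and others), 6 were measured well enough for the course. None of the 6 was lower and 1, the kinase gene Fyn, was higher in all 405 min than in all 45 min high-share libraries, which 8.95% of all genes were. Their median log2 change was 0.40. Flna, an actin cross-linker that anchors caveolae, was at 523 and 63.5 CPM at 45 min, 21.6 and 227 CPM at 135 min, and 1183, 20.2 and 430.5 CPM at 405 min, with libraries of 1 time far apart. Pacsin2, which bends membrane at the neck of caveolae, was at 93.7 to 112 CPM at 45 min and 102.5 to 132 CPM at 405 min. Against control, 7 of the list were tested and 0 were called in the edgeR fit at any time, with median log2 fold changes of 0.88, 0.02 and 1.19 beside 0.14, 0.16 and 0.11 for all tested genes.

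Genes of other uptake routes were read in the same way. Of 9 measured clathrin-coat genes, only Dab2, an adaptor for clathrin-mediated uptake, was lower in all 405 min libraries (median log2 change of the list -0.05), beside the 19.9% of all genes. Of the flotillin and lipid-raft list 2 were measured, and Erlin2, an endoplasmic reticulum protein of the prohibitin family, was the 1 that was lower, at 50.3, 26.0 and 12.96 CPM. None of 4 measured sterol-handling genes was lower or higher throughout. Against control, 0 genes of these lists were called in the edgeR fit (6, 2 and 5 tested).

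Among the neighbours of Cav1 and Cav2 on chromosome 6, 4 of 7 were measured and 2 were lower in all 405 min libraries, as were 19.9% of all genes. Met, the hepatocyte growth factor receptor gene next to Cav1, was at a mean of 171, 88.6 and 69.6 CPM, and Capza2, for an actin-capping subunit, at 496, 388 and 236 CPM. Their log2 changes of -1.33 and -1.21 were smaller than those of the caveolins. Mdfic and Tes, on the side of Cav2, had log2 changes of -0.42 and 0.26 with overlapping libraries.

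Of the 12 fibroblast markers, all measured, 6 were lower in all 405 min than in all 45 min high-share libraries. Their list had a median log2 change of -1.35, beside 19.9% and -0.14 for all genes of the course. Replicate 3 was the lowest 405 min library for each marker except Col5a1 and Fbn1, with Vim at 1193 against 2510 and 4112 CPM. The median change was not computed without that library. Pdgfrb, a growth factor receptor of fibroblasts, went from a mean of 249 to 27.6 CPM and the calcium-binding S100a4 from 856 to 74.4 CPM, while Fn1, for fibronectin, was at 2708 to 5940 CPM at 45 min and 1403 to 9580.1 CPM at 405 min. Markers of other caveola-rich cells stayed low in the same libraries: 7 endothelial markers summed to at most 153 CPM, 5 adipocyte markers to at most 99.9 CPM and 6 muscle markers to at most 92.4 CPM. Epithelial and macrophage lists reached at most 87.4 and 47.6 CPM. In the low-share libraries these lists summed to 223 to 505, 75.4 to 168, 101 to 253, 114 to 192 and 59.1 to 160 CPM in the same order. The part of the fibroblast markers' fall in that of the caveolins was not tested.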

How the data were processed

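RNA of 16 libraries (4 groups of 4, grouped by title) had been sequenced. The authors deposited, per library, estimated counts (raw fragments per gene) and FPKM. Per the methods of the study reads were mapped to mm9, whereas the submitters' processing notes name mm10. The tables hold symbols only, so positions are from GENCODE M1 on NCBIM37. Of the deposited count values, 97.9% to 99.4% per library were whole, and all were rounded. In 1 library, 27 symbols turned into dates were restored from the shared row order. No 2 of 120 library pairs held identical values.

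CPM was computed over all fragments, and log2 values used a pseudocount of 1 CPM. Each time was compared with control by edgeR 4.0.16 (R 4.3.3; quasi-likelihood test, TMM factors, all 16 libraries, at least 1 count in each, Benjamini-Hochberg adjustment), since the study's methods name edgeR and the removal of zero-count genes. This strict reading kept 21.5% of genes. Cav2 ratios were compared by 2-sided exact permutation tests (SciPy 1.17.1). Alternatives were DESeq2 1.42.0, edgeR's exact test, RLE factors, other filters, fits of the 2 groups compared, a replicate block, the ribosomal share as a covariate, low-share libraries only, other pseudocounts, deposited FPKM and leaving out each library. Values relative to genes of like GC content, and those of the Cav2 ratios from 45 to 405 min without 1 library, were chosen after seeing the data.

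The 5 genes, the lists and the tests were chosen with earlier results of these data known. Named genes are the 5, genes of the lists, and the 5 genes with the highest r with Cav2. Exon lengths covered 90.8% of symbols, and transcript GC covered 94.6% of the 5858 genes of the course.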

Additional observations from a re-analysis of the deposited data

Results flagged for a closer look

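The 5 genes and the Cav2 to Cav1 ratio were each examined in the 4 groups for a library apart from the rest. Of these 24 sets of 4 values, 2 had one, and chance gives about 1 in 20 (here 1.2). The sets share libraries and the ratio is made from Cav1 and Cav2, so they are not independent. Cav1 in 405 min replicate 2 was at 5.96 log2(CPM + 1), against 7.03 to 7.08 in the other 3 libraries of that time. This is the low-share library of the group. Sdpr in 135 min replicate 3 was at 0 log2(CPM + 1), against 6.29 to 7.29 in the others. It had no fragment in that library, the shallowest of all with 570323 fragments, where a count of 0 allows up to 3 fragments, or 5.26 CPM (upper bound of the 95% exact Poisson interval 6.47 CPM). Cav2 in 45 min replicate 4 and Prkcdbp in both of these libraries also had no fragment.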

How the results depend on the processing

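Against control, no call of the 5 genes changed under the alternatives run except with DESeq2, which called 1 of them (Cav1 at 45 min) and 330, 173 and 404 genes in all at 45, 135 and 405 min, against 0 in edgeR's quasi-likelihood test. At 405 min, edgeR's exact test called 12 genes, the fit of low-share libraries 2, and the fits without a filter and with filterByExpr 1 each. RLE factors moved the median log2 fold change of all genes at 405 min from 0.11 to -0.02. Dropping the filter moved Cav1 at 405 min from 0.34 to 1.15 and Ptrf from 0.66 to 1.78.

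Library kind turned directions. Below, Cav1 and Ptrf come from fits of genes with at least 1 fragment in every library fitted. Cav2, Sdpr and Prkcdbp come from fits without a filter, so the values are not like for like. In low-share libraries alone the log2 fold changes at 45, 135 and 405 min were -1.15, -0.48 and -0.89 for Cav1. They were -1.64 for Cav2 and -1.97 for Ptrf at 45 min, -0.40 for Sdpr and -0.029 for Prkcdbp at 135 min, and -0.16 for Ptrf and -1.06 for Prkcdbp at 405 min. With the log2 ribosomal share as a covariate they were -0.040, -0.32 and -2.04 for Cav1, and -0.97 for Ptrf at 45 min. With it Sdpr was at -0.20 and Prkcdbp at -0.055 at 135 min, and at 405 min Cav2 was at -0.61, Ptrf at -0.81, Sdpr at -0.080 and Prkcdbp at -0.14. In low-share libraries the Cav2 to Cav1 ratio differed from control by 1.04 at 135 and 1.68 at 405 min. Cav2 to the mean of the others differed by 1.34 at 405 min. All low-share values at 405 min rest on replicate 2 alone. At 135 min the log2 Cav2 to Cav1 ratios were -1.82 and 0.89 in replicates 3 and 4. At 45 min they were -1.48 and -5.55, the latter with no Cav2 fragment, beside a control mean of -1.51. With a pseudocount of 1 the ratio difference of all treated low-share libraries from control was 0.13. The cause of these changes was not tested.

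The fall from 45 to 405 min kept its sign for Cav1, Cav2, Sdpr and Prkcdbp under each alternative scaling. Per ribosomal protein fragment it was -2.53 for Cav1 and -0.87 for Sdpr, and Ptrf was at 0.19. Relative to genes of the same GC class it was -2.57 for Cav1 and -1.04 for Sdpr. With libraries over 6% only, Ptrf was at 0.18. In the deposited FPKM the last 2 times of Sdpr overlapped in the high-share libraries. Sdpr was at 42.0 and 44.7 FPKM at 135 min and at 34.7, 42.6 and 55.2 FPKM at 405 min.

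Leaving out each library in turn gave log2 changes of -3.26 to -2.79 for Cav1, -3.56 to -2.06 for Cav2, -1.62 to -1.11 for Sdpr, -1.58 to 0.14 for Prkcdbp and -1.56 to 0.95 for Ptrf. The difference of Cav2 to Cav1 from control then ranged from -1.92 to -0.56 at 45 min, -0.88 to 0.35 at 135 min and -0.68 to 0.45 at 405 min, and from -0.66 to 0.95 in low-share libraries. For Cav2 to the mean of the others it ranged from -1.57 to 0.10 at 45 min, 0.47 to 1.63 at 135 min and -1.21 to 0.087 at 405 min. Fold changes against control at 45 min ranged from 1.83 to 3.40 for Cav1 and, in the fit without a filter, from 1.21 to 3.27 for Cav2. Both were lowest without 45 min replicate 2. Fold changes of Ptrf ranged from -1.08 to 0.91, turning negative without 45 min replicate 1. For Cav1 they ranged from 0.88 to 2.42 at 135 min and 0.055 to 0.94 at 405 min.

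Groups share replicate numbers. Same-numbered libraries had an r over 0.1 in 14 of 24 pairs, and 7 of 16 libraries correlated best with their own number. Between 45 and 135 min all 4 pairs were over 0.1, with r from 0.513 to 0.557. Pairs with 405 min ran from -0.761 to 0.611, and each group had a pair with control under 0.1. At 45 and 135 min replicates 1 and 2 were high-share and replicates 3 and 4 low-share, so number and library kind cannot be told apart there. Between 45 and 405 min r was -0.664 for replicate 2 and -0.761 for replicate 4, which differed in kind. The numbers were therefore not taken to pair libraries with control. With it as a replicate block 0 genes were called at each time, and Ptrf at 45 min turned to -0.30. At 570323 to 1469951 fragments, a count of 0 in a low-share library allows up to 2.04 to 5.26 CPM (3 fragments), which limits what can be said of Cav2, Sdpr and Prkcdbp there.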
